A study of Bos indicus with 55 samples.

Results

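Extracellular vesicles (EVs, membrane particles that cells release) from day 16 cattle conceptuses were searched for 8 miRNA entries best known from nervous tissue: bta-miR-124a, bta-miR-124b, bta-miR-1298, bta-miR-219-3p, bta-miR-218, bta-miR-138 and both arms of bta-miR-9 (the species prefix is left out where a value is repeated). They were taken by name from a count table of 1024 bovine miRNA entries, 655 of which had a count. Of the 8 names, 7 had a row of their own. The name bta-miR-9-5p had none, and the row bta-miR-9, which carries no arm in its name, was used for it beside bta-miR-9-3p. The entries were chosen because earlier results of these libraries showed them to differ between conceptus types, so all levels by type are given as a description without a test.

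The EVs were collected over 6 h of culture and sequenced as small RNA in 28 libraries, each with its own animal number in the labels. Nuclear transfer conceptuses, in which the nucleus of a donor cell replaces that of an egg, gave 12 libraries (7 male, 5 female). Conceptuses of in vitro fertilisation (IVF) gave 10 (3 male, 7 female), and in vivo conceptuses from artificial insemination gave 6 (3 male, 3 female). The donor cells of nuclear transfer are not named in the labels, so conceptus sex and donor cell cannot be told apart there. The labels name Bos indicus as the organism of every sample, while the series text describes the conceptuses as Bos taurus taurus and the pregnant cows as indicine. Library totals ran from 39263 counts in in vivo male 2 to 603579 in nuclear transfer female 3. A single count was therefore worth between 2.55 and 0.166 counts per 100,000, and a count of 0 in 1 library allowed from 7.64 down to 0.497 per 100,000 (3 counts of the total). PCR reads without molecular identifiers are not independent molecules, so these floors and all intervals cover counting error only.

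A miRNA is a short RNA that guides an Argonaute protein to matching messenger RNAs, mainly through its seed near the 5′ end, and lowers their output. miR-124 is among the most abundant miRNAs of neurons, where it represses genes of other lineages, and miR-9 is abundant in neural progenitors and the developing brain. miR-219 is known from oligodendrocytes, the cells that make myelin, miR-138 from dendritic spines and miR-218 from motor neurons; in human, miR-1298 lies in an intron of HTR2C, a serotonin receptor gene. None of these miRNAs is restricted to the brain, and a day 16 conceptus consists mostly of elongating trophoblast, with the embryonic disc at about the stage of gastrulation.

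The entries fell into a rare set and a common set. The rare set was miR-124a, miR-124b, miR-1298, miR-219-3p and miR-138, which had no count in 18, 18, 16, 20 and 15 of the 28 libraries. The common set was miR-9, with counts in all 28 libraries, miR-9-3p, with counts in 27, and miR-218, with counts in 25. By its mean of 1584 counts per 100,000, miR-9 ranked 13 among the 1024 entries, whereas miR-218 ranked 85, miR-9-3p 127, miR-124a 153, miR-1298 173, miR-219-3p 223 and miR-138 251. Levels of different miRNAs also depend on how well each is captured in a library, so this order is that of the counts.

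**Figure D1:**
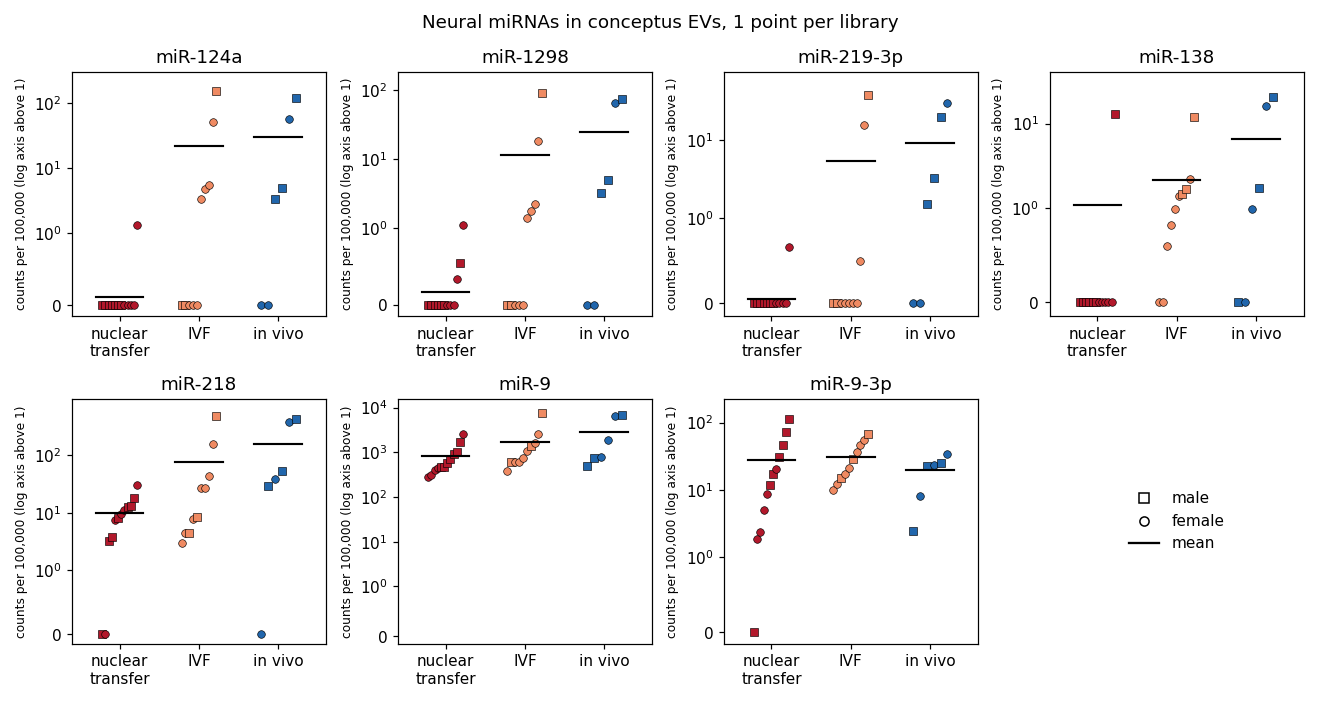
Counts per 100,000 (vertical axis, logarithmic above 1 and linear below) of miR-124a, miR-1298, miR-219-3p, miR-138, miR-218, miR-9 and miR-9-3p by conceptus type; each point is 1 EV library (squares male, circles female) and the line is the mean of the type. For miR-124a, 1 of 12 nuclear transfer, 5 of 10 IVF and 4 of 6 in vivo libraries lie above 0, and for miR-9 all 28 do.

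bta-miR-124a had a count in 1 of 12 nuclear transfer, 5 of 10 IVF and 4 of 6 in vivo libraries. The nuclear transfer library was female 3, at 1.33 counts per 100,000 from 8 counts. The IVF libraries were male 3 at 149.8, female 4 at 51.0, female 7 at 5.53, female 5 at 4.78 and female 3 at 3.35 counts per 100,000. The in vivo libraries were male 2 at 117.2, female 3 at 56.9, male 3 at 4.99 and male 1 at 3.30. Thus 4 libraries, 2 IVF and 2 in vivo, stood above 50 per 100,000 and the other 6 carrying libraries lay at or below 5.53. Those 4 libraries held 94.2% of the summed per 100,000 levels. Because libraries at 0 occur in all 3 types, the types overlap.

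The mean of miR-124a was 0.110 ± 0.383 counts per 100,000 in nuclear transfer EVs (SD, n = 12), 21.4 ± 47.7 in IVF EVs (n = 10) and 30.4 ± 47.9 in in vivo EVs (n = 6). The median was 0, 1.68 and 4.14 in the same order. Each mean rested on 1 library: it was 0 without nuclear transfer female 3, 7.19 without IVF male 3 and 13.0 without in vivo male 2. The 7 nuclear transfer male libraries together had 0 counts, which allows 0.304 per 100,000 over their pooled total. In bulk vesicles, fewer vesicles that carry a miRNA and fewer copies per vesicle cannot be told apart.

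The miR-124b count multiplied by 2 equalled the miR-124a count in all 28 libraries, so both entries are 1 measurement. miR-124b reached 74.9 counts per 100,000 in IVF male 3, the highest library, from 31 counts. Counts that were only even also occurred for miR-9-3p, in 27 of its 27 carrying libraries, and for miR-9 in 26 of 28, the odd ones being 3199 in IVF male 3 and 2723 in in vivo male 2. Across the 255 entries with a count in at least 20 libraries the median share of even counts was 50%, and 5 entries were even throughout. How the authors counted reads with several matches is not given in the sources used here. Counting intervals treat each count as 1 event and are too narrow for an entry whose counts move in steps of 2.

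bta-miR-1298 was found with miR-124. It had 4 counts in 3 of 12 nuclear transfer libraries, with 2 in female 3 and 1 each in female 5 and male 5, at 0.331, 1.10 and 0.540 counts per 100,000. In IVF EVs it had 69 counts in 5 of 10 libraries, with 91.8 per 100,000 in male 3, 18.1 in female 4, 2.23 in female 3, 1.79 in female 5 and 1.38 in female 7. In in vivo EVs it had 77 counts in 4 of 6 libraries, with 73.9 per 100,000 in male 2, 65.1 in female 3, 4.94 in male 1 and 3.24 in male 3. The IVF and in vivo libraries with miR-1298 were those with miR-124a, and 2 nuclear transfer libraries had miR-1298 without miR-124a.

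The mean of miR-1298 was 0.164 ± 0.341 counts per 100,000 in nuclear transfer EVs (SD, n = 12), 11.5 ± 28.7 in IVF EVs (n = 10) and 24.5 ± 35.0 in in vivo EVs (n = 6). Without nuclear transfer female 5, IVF male 3 or in vivo male 2 the mean of that type was 0.0792, 2.61 and 14.7. In human, other miRNAs share the HTR2C host gene with miR-1298. Of 5 such miRNAs listed, 4 had a row here: miR-448 had 1 count, in IVF female 7, and miR-1264, miR-764 and miR-1911 had 0 counts in all 28 libraries, against 150 counts of miR-1298.

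bta-miR-219-3p had the fewest carrying libraries of the 8 entries. It had 4 counts in 1 of 12 nuclear transfer libraries, female 3, at 0.663 counts per 100,000. It had 36 counts in 3 of 10 IVF libraries, with 38.7 per 100,000 in male 3, 15.6 in female 4 and 0.498 in female 1. It had 31 counts in 4 of 6 in vivo libraries, with 30.5 per 100,000 in female 3, 20.4 in male 2, 3.30 in male 1 and 1.50 in male 3. Its means were 0.0552 ± 0.191 in nuclear transfer (n = 12), 5.48 ± 12.6 in IVF (n = 10) and 9.28 ± 13.0 in in vivo EVs (SD, n = 6), and 0, 1.79 and 5.03 without nuclear transfer female 3, IVF male 3 and in vivo female 3. The partner arm miR-219-5p had 3 counts in 2 libraries, against 71 counts of miR-219-3p.

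bta-miR-138 had a different set of carriers. It had 18 counts in 1 of 12 nuclear transfer libraries, male 4, at 13.1 counts per 100,000, a library with no count of miR-124a, miR-1298 or miR-219-3p. In IVF EVs 8 of 10 libraries carried it, at up to 12.1 per 100,000 in male 3 and between 0.597 and 2.23 in the other carriers. In in vivo EVs 4 of 6 libraries carried it, at 20.4 in male 2, 16.3 in female 3, 1.75 in male 3 and 0.993 in female 2. The means were 1.09 ± 3.77 in nuclear transfer (n = 12), 2.12 ± 3.57 in IVF (n = 10) and 6.56 ± 9.22 per 100,000 in in vivo EVs (SD, n = 6). They were 0 without nuclear transfer male 4, 1.02 without IVF male 3 and 3.80 without in vivo male 2.

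Carriage of the rare entries was bunched. The entries were chosen from earlier results of these libraries, so their shared carriers are described and not tested. Counting miR-124b, miR-1298, miR-219-3p and miR-138, 10 of the 28 libraries carried none, 8 carried 1, none carried 2, 5 carried 3 and 5 carried all 4. Among nuclear transfer libraries 8 carried none, 3 carried 1 and 1 carried 3. Among IVF libraries 1 carried none, 4 carried 1, 3 carried 3 and 2 carried 4. Among in vivo libraries 1 carried none, 1 carried 1, 1 carried 3 and 3 carried 4. All 10 libraries with miR-124b also had miR-1298, and 7 of the 8 with miR-219-3p had miR-124b.

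**Figure D2:**
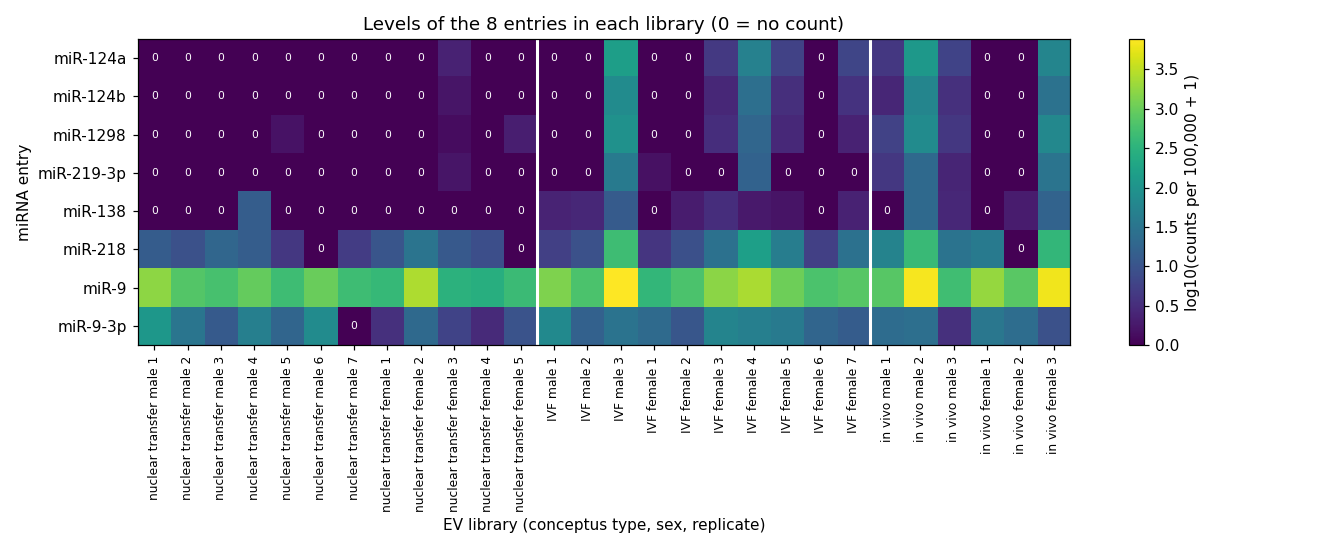
Level of each of the 8 entries (rows) in each of the 28 EV libraries (columns), as log10(counts per 100,000 + 1); a 0 marks a library with no count, and white lines divide nuclear transfer, IVF and in vivo libraries. IVF male 3, IVF female 4, in vivo male 2, in vivo male 3 and in vivo female 3 carry all 8 entries.

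bta-miR-218 was found in 10 of 12 nuclear transfer, all 10 IVF and 5 of 6 in vivo libraries. Its lowest, median and highest levels were 0, 8.93 and 30.2 counts per 100,000 in nuclear transfer EVs, 2.99, 17.7 and 478.3 in IVF EVs, and 0, 46.5 and 435.5 in in vivo EVs. The highest libraries were again IVF male 3 at 478.3, in vivo male 2 at 435.5, in vivo female 3 at 380.2 and IVF female 4 at 157.2. The means were 9.82 ± 8.47 in nuclear transfer (n = 12), 76.2 ± 149 in IVF (n = 10) and 156.4 ± 196 per 100,000 in in vivo EVs (SD, n = 6), with 31.5 in IVF without male 3 and 100.5 in in vivo without male 2. Unlike miR-124a, miR-218 thus had counts in some libraries where the rare entries were at 0, as in nuclear transfer male 3 at 18.3 and in vivo female 1 at 38.6. In nuclear transfer male 6, miR-218 and the rare entries were all at 0.

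miR-9 ran from 276.9 to 2607 counts per 100,000 in nuclear transfer EVs (median 527.4), from 374.4 to 7728 in IVF EVs (median 909.5) and from 488.9 to 6935 in in vivo EVs (median 1330). The 3 highest libraries were IVF male 3 at 7728, in vivo male 2 at 6935 and in vivo female 3 at 6336, followed by nuclear transfer female 2 at 2607 and IVF female 4 at 2523. Nuclear transfer female 2, high in miR-9, had no count of miR-124a, miR-1298, miR-219-3p or miR-138. The means were 824.8 ± 686 in nuclear transfer (n = 12), 1729 ± 2204 in IVF (n = 10) and 2861 ± 2968 per 100,000 in in vivo EVs (SD, n = 6), and 1062 in IVF without male 3.

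For all of the entries except miR-9-3p the means stood in the order in vivo, IVF and nuclear transfer from high to low, but for miR-124a and miR-124b the order of IVF and in vivo turned round with TMM-scaled library sizes or without miR-2887 and miR-2904, the entries with the largest share of some libraries. With TMM-scaled sizes miR-124a averaged 0.125 per 100,000 in nuclear transfer, 21.3 in IVF and 19.4 in in vivo EVs, and without miR-2887 and miR-2904 it averaged 0.116, 40.8 and 39.3. Single libraries turned neighbouring means round as well. Without in vivo male 2, miR-124a and miR-124b averaged 13.0 and 6.52 in in vivo EVs, below their IVF means of 21.4 and 10.7. Without in vivo female 3, miR-219-3p averaged 5.03 in in vivo EVs, below its IVF mean of 5.48. Without IVF male 3, miR-138 averaged 1.02 in IVF EVs, below its nuclear transfer mean of 1.09. miR-9-3p averaged 27.5 ± 34.2 counts per 100,000 in nuclear transfer (n = 12), 31.3 ± 20.1 in IVF (n = 10) and 19.5 ± 11.8 in in vivo EVs (SD, n = 6), so IVF EVs had the highest mean; without IVF male 1 their mean was 27.1, below that of nuclear transfer EVs. Of the 16 gaps between neighbouring means, 2 for each of the 8 entries, 0 were larger than the larger SD of the pair and 0 had ranges that did not overlap. For the rare entries the SD was above the mean and some libraries lay at 0 in every type, so neither limit could be met. Both limits describe the spread between libraries and do not measure the uncertainty of a mean. The order of the means was not tested.

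Library depth varied with these levels. The 3 libraries with the smallest totals of the 28 were in vivo male 2 with 39263 counts, IVF male 3 with 41396 and in vivo female 3 with 49179, the same 3 that led miR-124a, miR-1298, miR-218 and miR-9 per 100,000. The highest miR-124a level outside them was in IVF female 4, with a total of 121539. In vivo male 1 and nuclear transfer female 2, next lowest in depth with 60682 and 69424 counts, had 3.30 and 0 counts per 100,000 of miR-124a. Before any scaling, miR-124a had 62 counts in both IVF male 3 and IVF female 4, 46 in in vivo male 2 and 28 in in vivo female 3, so these were also the 4 highest by raw count. Across the 28 libraries Pearson's r between log10 total and log2(level + 1) was -0.39 for miR-124a, -0.50 for miR-1298, -0.43 for miR-218, -0.61 for miR-9 and -0.07 for miR-9-3p. The total is the divisor of each level, so the points share it, and the part of depth in these levels was not tested.

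**Figure D3:**
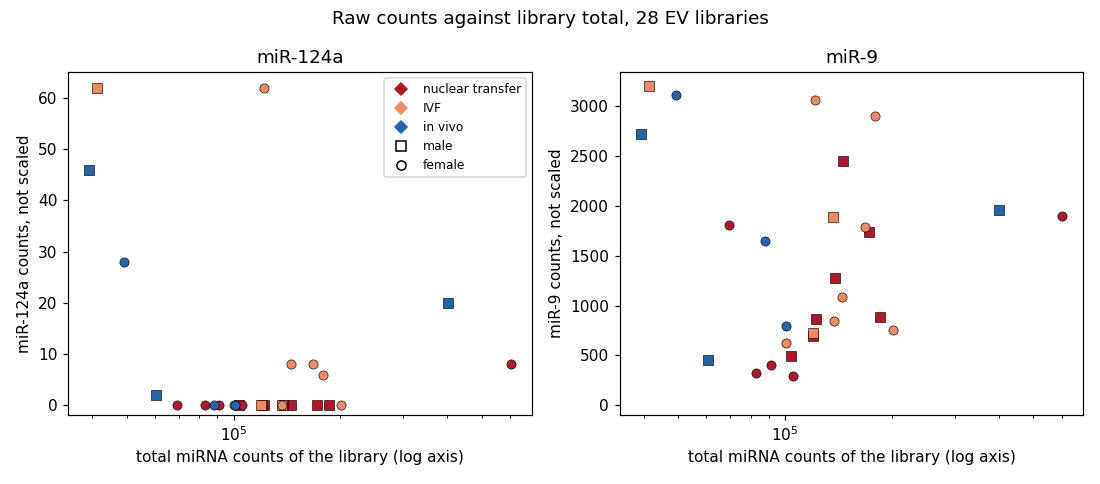
Raw counts of miR-124a (left) and miR-9 (right) against the total miRNA counts of the library (logarithmic axis); each point is 1 EV library, coloured by conceptus type, with squares for male and circles for female. For miR-124a, IVF male 3 and IVF female 4 stand highest at 62 counts, and the deepest library, nuclear transfer female 3, has 8.

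The share of counts in miR-2887 and miR-2904 was 8.80% in IVF male 3, 76.3% in IVF female 4, 25.2% in in vivo male 2 and 17.0% in in vivo female 3, over a range of 4.11 to 76.3% in all libraries. These 4 libraries had counts for 220, 296, 256 and 275 entries, the range over all libraries being 220 to 406. Pearson's r with the share of miR-2887 and miR-2904 was -0.19 for miR-124a and 0.52 for miR-9-3p (n = 28 libraries).

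Across libraries miR-124b, miR-1298 and miR-219-3p varied together, and the r of miR-138 with each was lower. Pearson's r of log2(counts per 100,000 + 1) over 28 libraries was 0.98 between miR-124b and miR-1298, 0.96 between miR-1298 and miR-219-3p, 0.94 between miR-124b and miR-219-3p, and 0.72 between miR-124b and miR-138. miR-138 had r = 0.73 with miR-1298 and 0.67 with miR-219-3p, with a Spearman's rho of 0.50 and 0.38. For miR-1298, the 3 closest of 371 other entries with counts in at least 8 libraries were miR-124b, miR-124a and miR-219-3p. Of these, miR-124b and miR-124a are 1 measurement. All 8 entries were chosen on differences between types in these same libraries. That choice can itself place them close to each other, so their likeness is not a test. miR-218 had r = 0.84 and miR-9 had r = 0.76 with miR-124b, while miR-9-3p had r = 0.10. These values are a description of libraries in which most points sit at 0 for the rare entries and a few high libraries set the slope. Spearman's rho was 0.92 for miR-124b with miR-1298, 0.76 with miR-219-3p, 0.77 with miR-218 and 0.47 with miR-9.

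The entries were not in 1 fixed ratio in the libraries that carried them. For each count of miR-124b there were from 0.500 to 3.00 counts of miR-1298, from 0 to 2.00 of miR-219-3p, from 6.16 to 33.0 of miR-218 and from 98.9 to 967 of miR-9 over 10 libraries. In the 4 libraries with at least 14 counts of miR-124b, miR-1298 ran at 1.23 in IVF male 3, 0.710 in IVF female 4, 1.26 in in vivo male 2 and 2.29 in in vivo female 3. The ratio of miR-9 to miR-124b was close to 100 in IVF male 3, IVF female 4 and in vivo male 2, at 103.2, 98.9 and 118.4, and 222.6 in in vivo female 3.

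Outside the 8 entries, the profile closest to those of miR-124a, miR-124b, miR-1298 and miR-219-3p was that of miR-132, a miRNA induced by neuronal activity. Its r was 0.91 with miR-124a, 0.93 with miR-1298, 0.92 with miR-219-3p and 0.77 with miR-218 over 28 libraries, and 0.91 with miR-1298 without IVF male 3. miR-132 was at 31.4 counts per 100,000 in IVF male 3, 24.4 in in vivo female 3, 17.8 in in vivo male 2 and 4.94 in IVF female 4, and at 2.07 or less in the other libraries. Next for miR-124a, miR-124b, miR-1298 and miR-219-3p came miR-187, which had counts in 8 libraries, and miR-433, a miRNA of the imprinted DLK1-DIO3 region, with counts in 20. With miR-1298 their r was 0.85 and 0.84. Both have means under 3 counts per 100,000, at 0.618 for miR-187 and 2.66 for miR-433, so their profiles rest on a few counts. The same limit holds for miR-132, with a mean of 3.24 from 62 counts in 14 libraries. Its levels in IVF male 3, in vivo female 3, in vivo male 2 and IVF female 4 came from 13, 12, 7 and 6 counts.

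**Figure D4:**
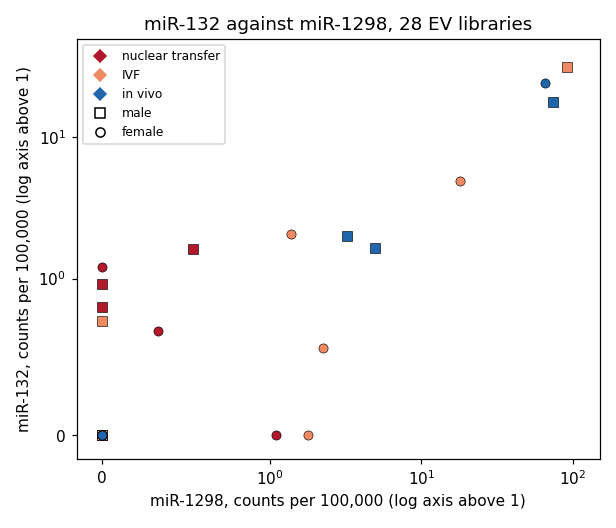
miR-132 against miR-1298 in counts per 100,000 (both axes logarithmic above 1 and linear below); each point is 1 of the 28 EV libraries, coloured by conceptus type, with squares for male and circles for female. IVF male 3, in vivo male 2 and in vivo female 3 lie highest for both, at 17.8 to 31.4 for miR-132 and 65.1 to 91.8 for miR-1298.

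Among entries other than the 8, miR-218 was most like miR-132, miR-127 (r = 0.73) and miR-433 (r = 0.69), all below its r of 0.85 with miR-124a. Within the same entries, miR-138 was most like miR-212 (r = 0.74), which is made from the same precursor cluster as miR-132, and then miR-490 (r = 0.72) and miR-132 (r = 0.70). Likewise outside the 8, miR-9 was most like miR-127, another DLK1-DIO3 miRNA with counts in all 28 libraries (r = 0.83), then miR-490 (r = 0.76) and miR-187 (r = 0.73). miR-212 and miR-490 had counts in 8 libraries each, at means of 1.86 and 0.679 per 100,000, so their r values rest on a few counts. For miR-490, the levels of 2.42 in IVF male 3 and 2.55 in in vivo male 2 came from 1 count each. miR-127 was at 425.2 counts per 100,000 in IVF male 3, 345.7 in in vivo female 3, 295.4 in in vivo male 2 and 120.1 in IVF female 4. By Pearson's r miR-9-3p had no close partner: miR-7, miR-6119-5p and miR-12034 came nearest with r = 0.59 each. Their Spearman's rho with miR-9-3p was higher for miR-7 and miR-6119-5p, at 0.69 and 0.75, and was 0.55 for miR-12034.

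Of 24 further miRNAs known from nervous tissue, 23 had a row and 21 a count. The most abundant were miR-7 at a mean of 2265 counts per 100,000, miR-128, a miRNA of mature neurons, at 523.6, and miR-129 and miR-129-5p, which have nearly the same counts, at 503.2 and 501.0; all 4 had counts in every library. miR-128 was highest in IVF male 3 at 2307 per 100,000, with 1848 in in vivo female 3 and 1778 in in vivo male 2. At the other end, miR-153 and miR-346 had 0 counts in all libraries and miR-137, a neuronal miRNA, had 5 counts in 3 libraries. Summed over the list, the range was 2116 to 6071 counts per 100,000 in nuclear transfer, 2320 to 5559 in IVF and 2556 to 6222 in in vivo EVs, so the sums overlap. The label neural describes what the 8 entries are known for; as a list, other miRNAs of nervous tissue ranged from 0 libraries to all 28.

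Between conceptus types, 7 of these 24 miRNAs passed the filter on low counts and could be tested with edgeR. In nuclear transfer against IVF none of the 7 passed, where 1.25% of the 240 entries tested did. An unadjusted p below 0.05 was seen for 1 of the 7, and DESeq2 and limma voom called 0. In nuclear transfer against in vivo none of the 7 passed, where 0.417% of 240 did. Here 2 of the 7 had an unadjusted p below 0.05, and the other tools again called 0. In IVF against in vivo none of the 7 passed, where 0% of 240 did. For this contrast 0 of the 7 had an unadjusted p below 0.05, and 0 were called by DESeq2 but 1 by limma voom, tools that called 13 and 22 of all 240 entries in this contrast. The 3 calls of the first contrast and the 1 of the second were all among the 8 entries, which were chosen on these contrasts, so nothing is read from them. The 1.25% and 0.417% consist of these calls alone, so they give no background from other entries. The log2 difference of miR-132 was -2.48 (SE 1.03, adjusted p = 0.428 by edgeR) in nuclear transfer against IVF and -3.04 (SE 1.08, adjusted p = 0.262 by edgeR) in nuclear transfer against in vivo. Its profile was singled out above for its likeness to entries chosen on these contrasts, so these values are no independent test. miR-128 differed by -1.28 (SE 0.53, adjusted p = 0.345 by edgeR) in nuclear transfer against in vivo. The 7 include miR-129 and miR-129-5p, whose nearly equal counts enter each tally, median and list sum as separate entries. The median log2 difference of the 7 was 0.12, -0.22 and -0.55 in the 3 contrasts, and that of all 240 entries was 0.06, 0.15 and 0.01.

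Of 6 miRNAs known from sensory organs and the eye, 5 had a count and were tested, and 0 of 5 passed in any contrast between types by edgeR. None had an unadjusted p below 0.05 in these contrasts, and the other tools made 0 calls except for 1 by limma voom in IVF against in vivo, where it called 22 of 240. The most abundant were miR-184 at a mean of 136.5 counts per 100,000, miR-183 at 55.6, miR-182 at 48.1 and miR-204 at 28.3. Their sum ran from 103.2 to 1321 in nuclear transfer, 43.0 to 642.6 in IVF and 201.0 to 955.1 in in vivo EVs.

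Markers of other tissues were present in the same libraries. The liver miRNA miR-122 ran from 20.9 to 2409 counts per 100,000 in nuclear transfer, 16.5 to 1228 in IVF and 20.3 to 766.7 in in vivo EVs. Striated muscle miRNAs, 7 of 7 with a count and led by miR-1, miR-499, miR-206 and miR-133a, summed to 10.3 to 1816 in nuclear transfer, 16.1 to 463.0 in IVF and 97.2 to 662.2 in in vivo EVs. Red blood cell miRNAs (3 of 3, led by miR-451, with miR-486 and miR-144) summed to 3.31 to 325.5, 3.91 to 532.3 and 24.7 to 232.4 in the same order. White blood cell miRNAs (5 of 5, led by miR-150, miR-155, miR-142-5p and miR-223) summed to 51.5 to 743.9, 35.4 to 456.5 and 71.2 to 486.1. Epithelial miRNAs (5 of 5, led by miR-200b, miR-200c, miR-200a and miR-429) summed to 419.5 to 9111, 403.2 to 5804 and 1063 to 7611. Endothelial miR-126-3p and miR-126-5p summed to 213.3 to 1538, 202.6 to 1039 and 63.9 to 1767. Over 28 libraries miR-124a had r = -0.55 with the liver marker, -0.47 with the white blood cell sum, 0.27 with the endothelial sum and 0.02 with the epithelial sum. The part of these cell types in the levels of the 8 entries was not tested.

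Conceptus sex was not used in choosing the entries and was tested with edgeR across the whole table. All 8 entries passed the filter on low counts. Over the 3 types, 0 of the 8 entries and 0% of the 240 tested differed between male and female EVs by edgeR. An unadjusted p below 0.05 was seen for 9 of 240, and DESeq2, which gave no adjusted p for miR-124a and miR-1298, and limma voom called 0. The smallest p among the 8 belonged to miR-138, at a log2 difference of 2.34 (male minus female, SE 0.95, adjusted p = 0.694 by edgeR). It averaged 1.87 ± 4.94 counts per 100,000 in nuclear transfer males (n = 7) and 0 in females (n = 5), 5.07 ± 6.07 in IVF males (n = 3) and 0.862 ± 0.788 in females (n = 7), and 7.37 ± 11.3 in in vivo males (n = 3) and 5.75 ± 9.12 in females (SD, n = 3). The fitted sign was positive for 6 of the 8 entries, with a median of 0.36 against -0.04 for all 240, but miR-124a at -0.16 and miR-124b at 0.08 are 1 measurement with opposite fitted signs, so the fit sets part of that count. Fitted folds of entries with groups at 0 depend on the prior count of the fit.

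Within nuclear transfer EVs, 0 of the 8 entries passed between males and females by edgeR, beside 8.33% of the 240 entries tested (20 entries, and 0 to 36 with 1 library left out). Of these 8, miR-124a, miR-124b, miR-219-3p and miR-138 had counts in 1 of 12 libraries each, and miR-1298 had 4 counts in 3. The filter takes all libraries together, so those rare entries could pass it mainly on IVF and in vivo libraries. With so few carriers their missing calls say little about sex, and miR-124a and miR-124b are 1 measurement. DESeq2 called 59 of the 240 entries and limma voom 46, and 76 had an unadjusted p below 0.05 by edgeR. Among the 8 entries bta-miR-9-3p came closest. It was at 111.5, 31.2, 11.7, 46.4, 17.3, 73.3 and 0 counts per 100,000 in the 7 male libraries, against 2.41, 20.2, 4.97, 1.90 and 8.76 in the 5 female ones. Of the 7 male libraries 4 lay above every female library, 2 lay within the female range and 1 lay below it. The log2 difference was 2.81 (male minus female, SE 0.96, adjusted p = 0.0569 by edgeR). DESeq2 put the same difference at 3.17 (adjusted p = 0.00585), and limma voom at 2.28 (adjusted p = 0.0874). Over 34 alternatives the adjusted p ran from 0.00585 to 0.198 and 4 were past the threshold: DESeq2, no filter on low counts (0.0425 by edgeR), and edgeR without nuclear transfer male 7 (0.0206) or without IVF female 2 (0.0489). The arm miR-9 differed by 0.40 (SE 0.72, adjusted p = 0.733 by edgeR) in the same contrast.

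Values of other measures in the nuclear transfer libraries, with ranges that overlap between the sexes and no test of either sum, were as follows. The share of miR-2887 and miR-2904 was 30.3 to 59.4% in the 7 male and 5.17 to 44.5% in the 5 female libraries. The 5 epithelial miRNAs summed to 419.5 to 3419 counts per 100,000 in males and 1907 to 9111 in females, and miR-200c fell by 2.15 on the log2 scale (male minus female, SE 0.65, adjusted p = 0.0381 by edgeR), as the 1 of these 5 that passed. Over all 28 libraries miR-9-3p had r = 0.52 with the share of miR-2887 and miR-2904 and r = -0.58 with the epithelial sum. Their part in the sex difference of miR-9-3p was not tested. Of the 24 other neural miRNAs 7 were tested and 0 passed by edgeR in this contrast, while 3 had an unadjusted p below 0.05, 3 were called by DESeq2 and 2 by limma voom. Those with an unadjusted p below 0.05 were miR-7 and the near-duplicates miR-129 and miR-129-5p. Of these, miR-129 stood at -2.22 (SE 0.73, adjusted p = 0.0555 by edgeR) and miR-7 at 1.75 (SE 0.81, adjusted p = 0.132 by edgeR).

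The interaction of type with sex called 0% of 240 entries by edgeR. An unadjusted p below 0.05 was seen for 35, and the other tools called 0. For miR-9-3p its adjusted p was 0.371 by edgeR, so the sex difference in nuclear transfer EVs is not shown to differ from those in IVF EVs (log2 difference 0.12, SE 1.00) and in in vivo EVs (-0.61, SE 1.23). Within IVF and within in vivo EVs 0 of the 8 entries passed by edgeR, beside 0% of 240 in each. An unadjusted p below 0.05 was seen for 3 and 7 of 240, and DESeq2 and limma voom called 0.

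The arms of miR-9 did not keep a fixed proportion. For each 100 counts of miR-9 there were from 0 to 7.23 counts of miR-9-3p, with a median of 1.99 over 28 libraries. The mean was 4.13 ± 2.53 in nuclear transfer males (n = 7) and 1.12 ± 0.611 in nuclear transfer females (n = 5), 2.61 ± 2.30 in IVF males (n = 3) and 2.92 ± 1.43 in IVF females (n = 7), and 1.32 ± 1.53 in in vivo males (n = 3) and 1.66 ± 1.45 in in vivo females (SD, n = 3). The 3 libraries highest in miR-9, which is the divisor here, had ratios of 0.128 in in vivo female 3, 0.367 in in vivo male 2 and 0.375 in IVF male 3. Among the other libraries more miR-9 did not always go with a lower ratio. Nuclear transfer male 1, with 1684 counts per 100,000 of miR-9, had a ratio of 6.62. Nuclear transfer female 4, the lowest in miR-9 at 276.9, had 0.685. In numbers of counts, nuclear transfer male 6 had 1742 of miR-9 and 126 of miR-9-3p, and IVF male 3 had 3199 of miR-9 and 12 of miR-9-3p. Between the arms Pearson's r was 0.48 and Spearman's rho 0.66 over 28 libraries.

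**Figure D5:**
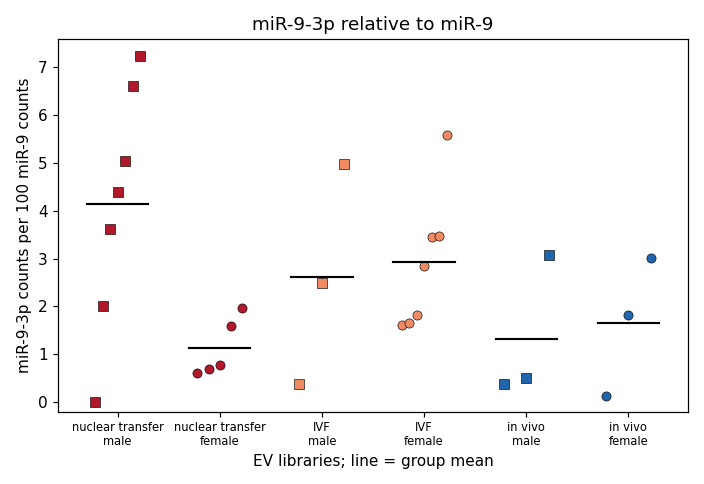
miR-9-3p counts per 100 miR-9 counts (vertical axis) by conceptus type and sex; each point is 1 EV library and the line is the group mean. Nuclear transfer males average 4.13 and nuclear transfer females 1.12, and the lowest value above 0 is 0.128 in an in vivo female library.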

How the data were processed

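The authors deposited whole, unnormalized counts of reads per miRNA entry for 28 EV libraries. Per the submitters' processing notes, the tools included cutadapt, STAR, featureCounts, Bowtie and DESeq2, and the genome build was ARS-UCD1.2; the sources used here give neither their versions nor their roles. Per the labels' protocols, vesicle RNA came from a miRNeasy Micro kit and libraries from a NUGEN Ovation SoLo kit, size-selected for short inserts. No sequences of the miRNAs are printed, and the endometrial table was not used here.

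Levels are counts per 100,000 of a library's miRNA counts. The sex tests used the quasi-likelihood test of edgeR 4.0.16 (R 4.3.3) on 6 means of type by sex, after a filterByExpr pass (at least 10 counts, and 15 in total) and TMM scaling, two-sided, with Benjamini-Hochberg adjustment at 0.05. DESeq2 1.42.0 and limma 3.58.1 (voom with quality weights) were alternatives, beside other scaling, no filter, library totals without miR-2887 and miR-2904, a replicate block and leaving out each library. Contrasts between types were added after the data were seen. Each SE is the absolute log2 difference divided by the square root of the F of the edgeR test, and not a fitted standard error. It can understate the spread: for miR-124b and sex over 3 types it was 0.154. With 1 library left out that fold ran from -2.40 to 2.16. The fit for sex was tested on simulated data with changed entries. It recovered 17 of 92 at a 2-fold change (18.5%), 96 of 97 at 8-fold and 99 of 99 at 32-fold. Each simulated entry had the same mean in every type, and the changed entries were picked at random. The rare entries, with groups at 0, are unlike that setting, so these shares do not apply to them. Calls of 0 for sex therefore do not show that 2-fold differences are absent. For the rare entries they do not show that larger differences are absent either.

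Entries and lists were chosen with earlier results of these data known. The naming rule takes all 8 entries, up to 4 of each list by mean level and any past a sex test, and the 3 entries most like each of the 8 by Pearson's r of log2(level + 1). Others named (miR-137, miR-153, miR-219-5p, miR-346, miR-132 tests, the HTR2C miRNAs at 0) were picked after their values were seen. All 61 pairs of libraries within a group differed beyond sampling noise, with a chi-square per degree of freedom of 33.6 or more.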

Additional observations from a re-analysis of the deposited data

Results flagged for a closer look

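A library was set apart where its gap to the next library was a large part of its group's range. The limit was Dixon's at 95%, used in groups of 4 to 10 libraries. For independent groups chance gives about 1 in 20. Of 20 groups examined, 11 had such a library, and 4 more had no count at all. A group here is the libraries of 1 type and sex for 1 entry, so the same libraries recur for different entries. Some entries vary together, and miR-124a and miR-124b are 1 measurement counted as separate groups. The groups are therefore not independent, and 11 of 20 cannot be set against 1 in 20. In IVF females, female 4 stood apart from the other 6 libraries in 5 entries, at 51.0 counts per 100,000 of miR-124a, 25.5 of miR-124b, 18.1 of miR-1298, 15.6 of miR-219-3p and 157.2 of miR-218; miR-2887 and miR-2904 took 76.3% of its counts. In nuclear transfer females, female 3 was the lone carrier of miR-124a at 1.33, of miR-124b at 0.663 and of miR-219-3p at 0.663. It is also the deepest library, with 603579 counts. In nuclear transfer males, male 5 was the lone carrier of miR-1298 at 0.540, from 1 count, and male 4 of miR-138 at 13.1, from 18 counts. miR-9 stood apart in nuclear transfer female 2 at 2607. A group in which 1 library alone has a count meets the limit whatever that count is.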

How the results depend on the processing

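For sex over 3 types and for the interaction, each of the 34 alternatives (6 other settings and 28 fits with 1 library left out) gave 0 calls. Within nuclear transfer the 20 calls became 3 with DESeq2-style size factors, 3 without miR-2887 and miR-2904, 59 by DESeq2, 46 by limma voom and 0 to 36 with 1 library left out. It was 0 without nuclear transfer male 1, male 3 or female 3 or IVF female 5, and 36 without nuclear transfer male 7. Nuclear transfer against IVF, 3 calls, gave 5 with no filter, 0 by DESeq2, limma voom and without miR-2887 and miR-2904, and 0 to 4 with 1 library left out. Nuclear transfer against in vivo, 1 call, gave 6 with no filter, 0 by DESeq2 and limma voom, and 0 to 5 with 1 library left out. IVF against in vivo, 0 calls by edgeR, gave 6 with no filter, 13 by DESeq2, 22 by limma voom and 0 to 21 with 1 library left out, the 21 without IVF male 3. With the replicate number of the titles as a block, the calls were 6 for nuclear transfer against in vivo. Libraries of different groups with the same number had a median correlation of deviations of 0.01 over 53 pairs, so they share only a number. The causes were not tested.

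For sex over the 3 types, none of the 8 folds passed under any alternative, while 29 of 272 values changed sign. DESeq2 gave no adjusted p for miR-124a and miR-1298. miR-124a turned to 0.29 by limma voom and 1.72 with the replicate block, miR-124b to -0.027 with no filter, and miR-219-3p to 0.042 by DESeq2, 0.48 by limma voom and 1.04 with the replicate block. With 1 library left out the folds ran from -2.98 to 2.25 for miR-124a, -2.40 to 2.16 for miR-124b, -2.13 to 2.92 for miR-1298, -2.53 to 1.73 for miR-219-3p, -0.78 to 1.17 for miR-218 and -0.26 to 0.72 for miR-9.

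A sex fold of miR-138 within nuclear transfer EVs could not be given without male 4, its lone carrier there. Of 72 mean levels under settings other than leaving out a library, 71 stayed within 1 SD of the main mean. The exception was miR-9-3p in IVF EVs, at 78.0 per 100,000 counts without miR-2887 and miR-2904. For the rare entries the SD was above the mean in every type, so even a fall to 0 stays within it. Leaving out 1 library cannot move a mean by 1 SD, so this limit is not applied to those means. Carrying libraries changed most for single counts. Nuclear transfer carriers of miR-1298 were 1 at a minimum of 2 counts, 0 at 3 and 0.768 expected after thinning to the smallest library, and IVF carriers of miR-138 were 5, 2 and 4.09. Thinned, nuclear transfer carriers of miR-124a were 0.416, of miR-124b 0.236 and of miR-219-3p 0.236. By Spearman's rho, 1 of the 3 entries named as most like miR-218, miR-138 or miR-9 stayed among the 3 closest.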
